A study of Mus musculus with 12 samples.

Results

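The 10 genes described here mark kidney tubule cells under injury or in repair: Havcr1, Lcn2, Vcam1, Spp1, Clu, Sox9, Sox4, Cd24a, Prom1 and Dcdc2a. They were taken from a deposited expression table of 24432 genes by matching Ensembl gene identifiers to these symbols. All 10 had a row, and all 10 passed the filter on low values (at least 1 FPKM in at least 3 of the 12 libraries), which left 16313 genes for testing. The number of libraries at 1 FPKM or more was 4 for Sox9, 8 for Havcr1, 9 for Lcn2, 10 for Dcdc2a, 11 for Prom1 and 12 for the other members. FPKM is the number of sequenced fragments scaled by gene length and by library size.

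Bulk RNA from 12 mouse libraries was sequenced in 4 groups of 3. Allograft tumors grew from cells without Lats1 and Lats2 (Lats1-/-;Lats2-/-, mixed background), placed beneath the capsule of the kidney in NOD/scid hosts aged 6 to 8 weeks and taken 6 weeks later. Such hosts lack mature T and B cells. In the allograft tumors, 4 of 6 T cell markers still reached 1 FPKM in each library, with sums of 13.2 to 22.3 FPKM. Lung metastases and primary kidney tumors came from Slc34a1CreERT2;Lats1/2flox/flox mice of mixed background, given 3 tamoxifen injections at 1 month of age and examined 4 months after tamoxifen. In them the Cre is driven by Slc34a1, the phosphate transporter of the proximal tubule. Proximal tubule cells, which the labels call wild type, were sorted from adult Slc34a1CreERT2;Lats1c/c;Lats2c/+;RosaTomato mice. They thus carried the Cre and conditional alleles, and the sources used here do not say whether these alleles had recombined. Nothing in the labels ties a replicate to a separate animal, so the p-values measure the spread between these libraries, which may be technical.

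An injured proximal tubule cell loses its transport genes, turns on a set of surface and secreted proteins, and then either redifferentiates or stays in an inflammatory, failed-repair state. HAVCR1 is a scavenger receptor shed into urine, LCN2 an iron-scavenging lipocalin used as a urinary injury marker, and SOX9 a transcription factor switched on in tubule cells that repair. Vcam1 and Dcdc2a mark failed-repair proximal tubule cells in mouse kidneys, and CD24 and PROM1 mark scattered tubular cells in human kidneys. LATS1 and LATS2 are the Hippo pathway kinases that restrain YAP and TAZ, coactivators of the TEAD transcription factors.

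Libraries differed in depth and in the tissue they held. Estimated depth was 11.8 to 18.7 M fragments (M, mega) in tumor libraries and 5.48 to 6.90 M in the proximal tubule libraries, where 1 fragment of a 1 kb transcript was worth 0.145 to 0.183 FPKM. Low values were compared between pairs of libraries over genes with 1 annotated transcript and less than 4 times the value of 1 fragment in both. The commonest ratio, equal to 6 significant digits, was shared by 34.9 to 43.8% of these genes for a pair of tumor libraries and by 0.855 to 0.913% for a pair of proximal tubule libraries. The labels do not say whether all columns were made in the same way, and folds against the proximal tubule libraries depend on that. Lats1 stood at 5.60 to 7.82 FPKM in allograft tumors, 9.54 to 10.7 in metastases, 12.3 to 14.7 in primary tumors and 11.9 to 12.8 in proximal tubule cells, and Lats2 was not lower in any tumor library (12.2 to 22.5 FPKM) than in proximal tubule cells (10.5 to 11.0 FPKM). A gene-level value does not resolve the deleted part, so it does not check the deletion.

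The summed level of 10 proximal tubule markers was 38.3 to 109 FPKM in allograft tumors, 178 to 224 in metastases, 167 to 4254 in primary tumors and 5425 to 6439 in proximal tubule cells. The driver gene Slc34a1 stood at 6.17, 833 and 166 FPKM in primary tumors 1, 2 and 3, against 866, 893 and 1039.8 FPKM in proximal tubule cells. All 8 macrophage markers were at 1 FPKM or more in every tumor library, with sums of 1712 to 6553 FPKM in allograft tumors, 5082 to 5667 in metastases, 411 to 2810 in primary tumors and 7.51 to 7.84 in proximal tubule cells. Sums of 8 fibroblast markers were 963 to 2425, 449 to 576, 165 to 945 and 2.62 to 4.93 FPKM in the same 4 groups. All 9 lung epithelial markers were present in the metastases, with sums of 12681 to 20063 FPKM, against 33.1 to 41.2 FPKM in allograft tumors and 8.26 to 16.8 in primary tumors. In such bulk libraries, fewer cells of a type and less RNA per cell cannot be told apart.

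**Figure D1:**
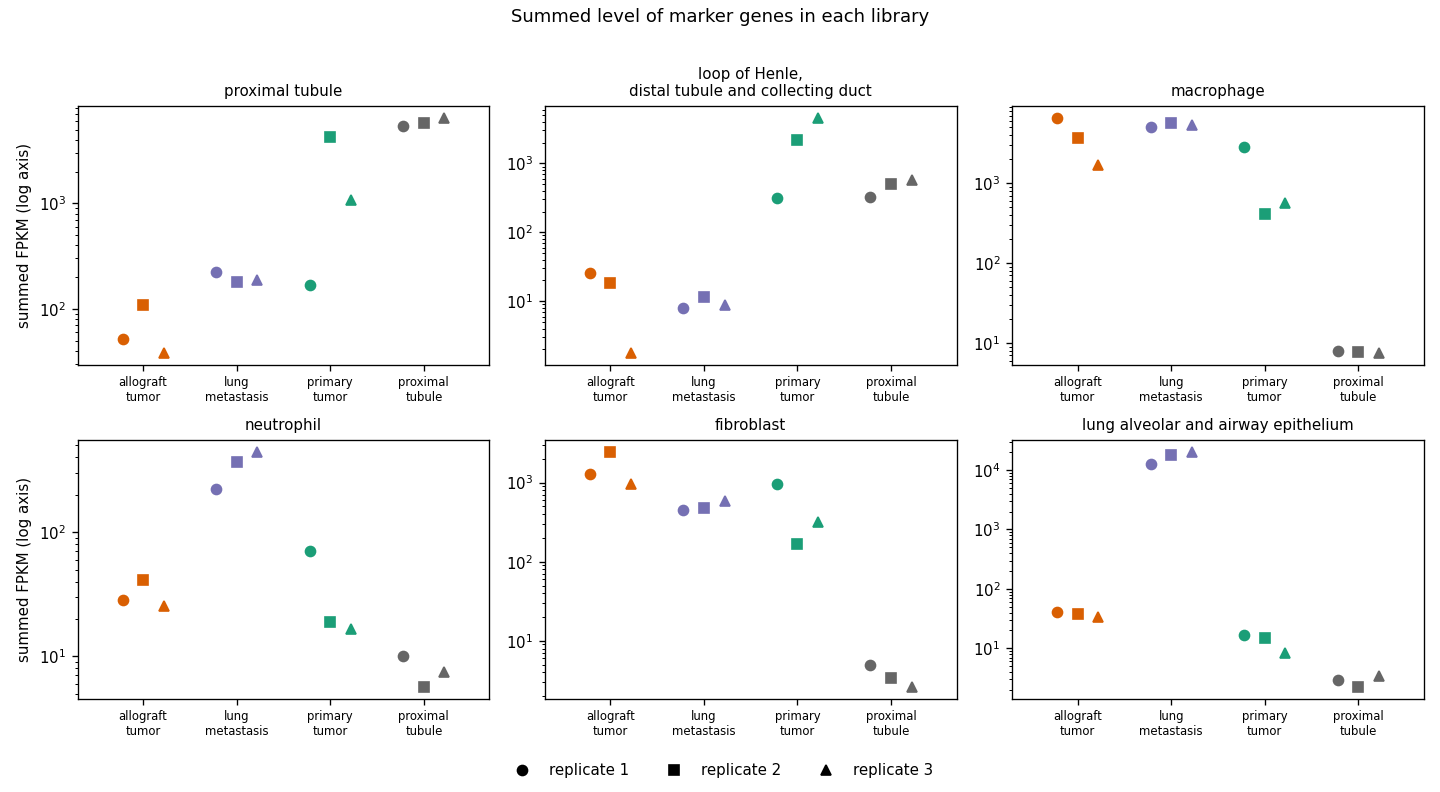
Summed FPKM (log axis) of fixed marker lists in each library, with allograft tumors, lung metastases, primary tumors and proximal tubule cells from left to right and a symbol for each replicate. Primary tumor 1 has the lowest proximal tubule sum of its group (167 FPKM) and the highest macrophage sum (2810 FPKM), and the lung epithelial sum is 12681 to 20063 FPKM in the metastases.

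Against proximal tubule cells, the members split into genes higher in every kind of tumor, genes called in some kinds of tumor, and genes not called in any. Lcn2, Vcam1, Sox4, Clu and Cd24a rose in all 3 kinds of tumor with the values as deposited, by 1.32 to 7.73 on the log2 scale, and under each of 5 other scalings given below Lcn2, Vcam1 and Cd24a kept all 3 calls. Sox9 rose in allograft tumors and primary tumors, Dcdc2a rose in primary tumors, and Prom1 fell in allograft tumors and metastases. Havcr1 and Spp1 passed the test in none of the 3 comparisons. Tests were limma fits over all 16313 genes of log2(FPKM + 1), with Benjamini-Hochberg adjustment and a threshold of 0.05 on the adjusted p, and changes are differences on that scale, which understate the folds of low genes.

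In allograft tumors 6 of 10 members rose and 1 fell, beside 52.2% of all genes called higher and 16.9% called lower, so the share of members that rose was near that of all genes. Libraries of the 2 groups did not overlap for 6 members that were higher and 2 that were lower, beside 55.9% and 19.7% of all genes. In metastases 5 members rose and 1 fell, beside 54.0% and 14.4% of all genes, again near the background, and 7 were higher and 2 lower without overlap, beside 62.7% and 20.7%. In primary tumors 7 rose and 0 fell, beside 48.2% and 4.9% of all genes, and 8 were higher and 0 lower without overlap, beside 56.7% and 5.52%. The median change of the 10 members was 2.18 in allograft tumors, 1.22 in metastases and 1.49 in primary tumors, while the median over all genes was 0.66, 0.68 and 0.59. The 3 comparisons share the proximal tubule libraries, so they are given side by side and no overlap of theirs is counted as evidence.

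**Figure D2:**
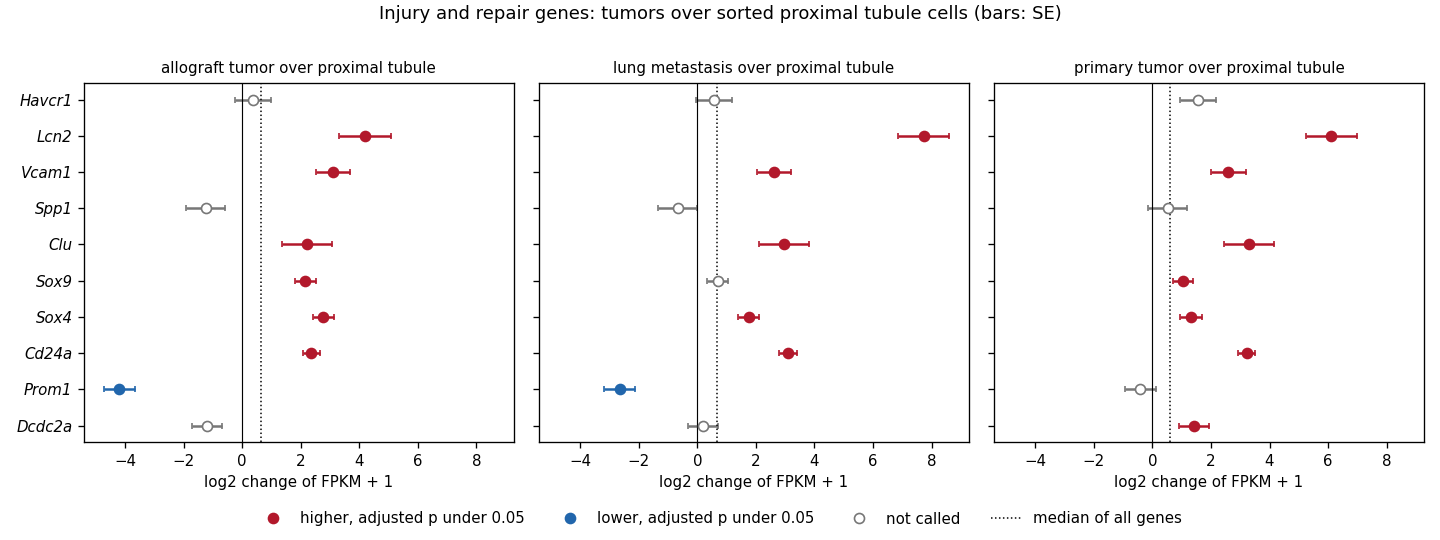
Log2 change of each gene (points, with SE bars) in allograft tumors, lung metastases and primary tumors over proximal tubule cells, with filled symbols for an adjusted p under 0.05 and a dotted line at the median of all genes. Lcn2 has the largest rise of the 10 in each panel (4.19, 7.73 and 6.11), and Prom1 is the one filled symbol left of 0 (-4.20 in allograft tumors and -2.65 in metastases).

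The general rise of genes over proximal tubule cells followed the scaling of the libraries. As deposited, 75.6% of calls were higher in allograft tumors, 78.9% in metastases and 90.8% in primary tumors. Over 5 other scalings (TPM, median of ratios with all or with protein-coding genes, quantiles, and leaving out the 50 most abundant genes) these shares ran from 33.7 to 57.0%, 43.7 to 63.8% and 35.9 to 74.9%, and the median change of all genes moved to between -0.37 and 0.19, -0.18 and 0.33, and -0.29 and 0.30. Lcn2, Vcam1 and Cd24a stayed called higher in all 3 kinds of tumor under all 5, as did Sox9 and Sox4 in allograft tumors, and Prom1 stayed called lower in allograft tumors and metastases. In primary tumors 4 members were called, in place of 7, under each of the 5 scalings, and Sox9, Sox4 and Dcdc2a were called under 0 of 5. As TPM these 4 were 3 higher and 1 lower, with Clu no longer called (2.20, adjusted p = 0.0672) and Prom1 called lower (-1.50, adjusted p = 0.037). In metastases Sox4 (0.79, adjusted p = 0.0879) and Clu (1.92, adjusted p = 0.0931) lost their calls as TPM and kept them under the other 4. In allograft tumors Spp1 (-2.67 to -1.88) and Dcdc2a (-1.88 to -1.64) were called lower under all 5, and Clu (0.82 to 1.76) under 0 of 5.

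**Figure D3:**
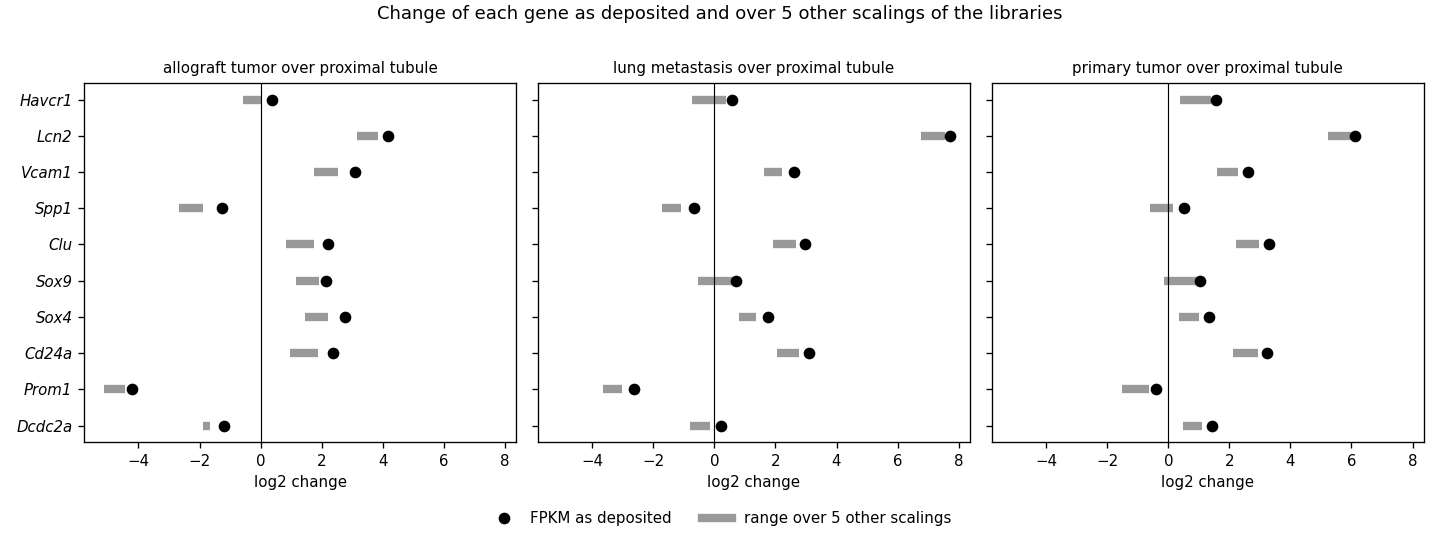
Log2 change of each gene over proximal tubule cells with the FPKM as deposited (points) and the range over 5 other scalings (grey bars), for allograft tumors, lung metastases and primary tumors. The bars lie left of the points throughout, and those of Lcn2 (3.15 to 3.85, 6.78 to 7.54 and 5.23 to 5.99) stay farthest above 0.

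Lcn2 encodes a secreted protein that binds bacterial siderophores and is made by injured distal tubule and by neutrophils (chr2:32384633-32388252, minus strand, GRCm38). Libraries held 12.7, 108 and 13.4 FPKM in the 3 allograft tumors, 307, 402 and 268 in metastases, 328, 30.1 and 112 in primary tumors, and 0.600, 0.463 and 0.501 in proximal tubule cells. The lowest tumor library lay far above the highest proximal tubule library, and the 3 metastases lay close together. The values in proximal tubule cells rest on about 2.36 to 4.52 fragments, depending on the transcript. Lcn2 rose by 4.19 ± 0.88 (SE) in allograft tumors (adjusted p = 0.00152), by 7.73 ± 0.88 in metastases (adjusted p = 3.57e-05) and by 6.11 ± 0.88 in primary tumors (adjusted p = 3.16e-04). The sum of 10 neutrophil markers was 25.5 to 41.1 FPKM in allograft tumors and 222 to 442 in metastases. It was 16.5 to 70.2 FPKM in primary tumors and 5.66 to 10.1 in proximal tubule cells. The sum followed Lcn2 in some libraries and not in others. Primary tumor 1 (sum of 70.2 FPKM, Lcn2 at 328) and allograft tumor 2 (41.1 FPKM, Lcn2 at 108) were highest of their groups in both. Metastasis 3 had the highest sum (442 FPKM) and the lowest Lcn2 (268) of its group. Primary tumor 3 had a sum of 16.5 FPKM with Lcn2 at 112, and primary tumor 2 had 19.0 FPKM with Lcn2 at 30.1. Of these markers 4 to 7 reached 1 FPKM in a tumor library, while Mpo and Elane, which define neutrophil precursors, were at or near 0 in all 12 libraries. The part of neutrophils in the Lcn2 values was not tested.

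The promoter of Lcn2 is shown because this gene rose most, and those of Sox4 and Prom1 because their windows hold a searched motif and these genes moved in opposite directions. Each window runs from 250 bases before to 50 bases after a RefSeq start (GRCm38.p6), 5′ to 3′ on the gene's strand, and capitals mark a motif. The windows lie at chr2:32387690-32387989 (minus strand) for Lcn2, chr13:28953650-28953949 (minus strand) for Sox4 and chr5:44101687-44101986 (minus strand) for Prom1.
Lcn2: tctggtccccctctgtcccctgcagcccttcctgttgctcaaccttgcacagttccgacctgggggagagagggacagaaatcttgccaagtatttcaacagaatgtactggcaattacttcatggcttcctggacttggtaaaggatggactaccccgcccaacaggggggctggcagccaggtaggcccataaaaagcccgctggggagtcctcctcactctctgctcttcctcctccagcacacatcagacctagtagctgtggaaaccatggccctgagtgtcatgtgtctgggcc
Sox4: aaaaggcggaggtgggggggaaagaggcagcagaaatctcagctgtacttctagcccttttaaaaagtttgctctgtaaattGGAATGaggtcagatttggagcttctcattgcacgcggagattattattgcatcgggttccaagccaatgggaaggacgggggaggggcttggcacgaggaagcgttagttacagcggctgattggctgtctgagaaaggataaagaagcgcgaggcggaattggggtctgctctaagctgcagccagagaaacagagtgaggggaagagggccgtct
Prom1: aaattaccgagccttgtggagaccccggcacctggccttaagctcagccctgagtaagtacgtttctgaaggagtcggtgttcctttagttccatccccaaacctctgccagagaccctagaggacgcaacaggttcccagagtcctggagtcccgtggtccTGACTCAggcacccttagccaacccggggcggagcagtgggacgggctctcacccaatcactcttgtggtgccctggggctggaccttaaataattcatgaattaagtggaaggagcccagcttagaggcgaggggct
Both strands were searched for GGAATG (TEAD), TGANTCA (AP-1), AACAAT (SOX) and the NF-kB consensus, and no motif contains another. Over 32851 promoters of all genes, 14.7% held GGAATG, 7.81% TGANTCA, 10.7% AACAAT and 8.46% the NF-kB consensus. Among 10 windows of 6 members (Havcr1, Lcn2, Sox4, Spp1, Prom1 and Dcdc2a), 4 held a motif. The share of all promoters with any of the 4 motifs was not computed, so this count is not read as a result. Sox4 had GGAATG at position -168, Prom1 had TGACTCA at -88 of start 1 and TGAATCA at -189 of start 2, and Havcr1 had TGAATCA at 11 of start 3. A match is a run of letters and not a measured binding site.

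Havcr1 encodes a receptor for phosphatidylserine that lets injured proximal tubule cells engulf dying neighbors (chr11:46735080-46779578, plus strand). Its level was 0.990, 2.35 and 0.858 FPKM in allograft tumors, 2.08, 1.54 and 1.48 in metastases, 18.0, 1.66 and 1.93 in primary tumors, and 0.579, 0.790 and 1.05 in proximal tubule cells. Apart from primary tumor 1, the highest library held 2.35 FPKM, and the allograft tumors overlapped the proximal tubule cells. No comparison was called: the changes over proximal tubule cells were 0.37 ± 0.61 in allograft tumors (adjusted p = 0.613), 0.58 ± 0.61 in metastases (adjusted p = 0.414) and 1.56 ± 0.61 in primary tumors (adjusted p = 0.0529). The last of these was 0.64 without primary tumor 1 (adjusted p = 0.0621). Leaving out primary tumor 2 gave 2.06 (adjusted p = 0.0187), leaving out primary tumor 3 gave 1.99 (adjusted p = 0.0306), and keeping only tumor 1 of the group gave 3.41 (adjusted p = 6.84e-05). Leaving out primary tumor 1 also brought the metastases under the threshold at an unchanged 0.58 (adjusted p = 0.0415), since the spread is shared by all groups.

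Vcam1 encodes an adhesion molecule that binds integrins made from the Itga4 gene product on leukocytes (chr3:116109949-116129688, minus strand, overlapped by the antisense gene Gm43109, which is not analysed here). Its values were 71.6, 47.0 and 42.5 FPKM in allograft tumors, 33.9, 38.5 and 39.2 in metastases, 128, 18.3 and 20.3 in primary tumors, and 6.66, 4.58 and 4.62 in proximal tubule cells. All 9 tumor libraries were above the 3 proximal tubule libraries, and the allograft tumors were above the metastases without overlap. The gene rose by 3.10 ± 0.59 in allograft tumors (adjusted p = 8.30e-04), 2.62 ± 0.59 in metastases (adjusted p = 0.00254) and 2.60 ± 0.59 in primary tumors (adjusted p = 0.00426). Without primary tumor 1 the last change was 1.71 (adjusted p = 3.42e-04). Macrophages, endothelium and fibroblasts can express Vcam1. Summed macrophage and fibroblast markers were also higher in every tumor library than in proximal tubule cells. Macrophage sums ranked as Vcam1 did within allograft tumors (6553, 3652 and 1712 FPKM) and within primary tumors (2810, 411 and 572 FPKM). Fibroblast sums ranked as Vcam1 did within metastases (449, 476 and 576 FPKM) and within primary tumors (945, 165 and 318 FPKM). Neither sum ranked as Vcam1 did over all tumor libraries. Primary tumor 1, the highest in Vcam1, had a macrophage sum of 2810 FPKM, against 5082 to 5667 in metastases. Allograft tumor 2 had the highest fibroblast sum (2425 FPKM), with Vcam1 at 47.0 FPKM. Endothelial sums were 76.1 to 144 FPKM in allograft tumors and 318 to 540 in metastases. They were 221 to 289 FPKM in primary tumors and 53.0 to 80.2 in proximal tubule cells. The part of these cell types in Vcam1 was not tested.

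Spp1 encodes osteopontin, a secreted phosphoprotein that binds integrins and is made by distal nephron, injured tubule and macrophages (chr5:104435118-104441050, plus strand). It was the most abundant member in every library, at 469, 825 and 217 FPKM in allograft tumors, 741, 768 and 502 in metastases, 4779, 715 and 974 in primary tumors, and 1170.03, 917 and 1051 in proximal tubule cells. The sorted proximal tubule cells were above all allograft tumors and metastases and within the range of the primary tumors. None of its changes over proximal tubule cells was called, at -1.25 ± 0.67 in allograft tumors (adjusted p = 0.118), -0.66 ± 0.67 in metastases (adjusted p = 0.394) and 0.52 ± 0.67 in primary tumors (adjusted p = 0.526). Without primary tumor 1 the value in primary tumors was -0.32 (adjusted p = 0.601), and the allograft change of -1.25 passed the threshold (adjusted p = 0.023).

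Clu encodes clusterin, a secreted chaperone that coats damaged proteins and cells (chr14:65968483-65981547, plus strand). Its level was 40.6, 459 and 156 FPKM in allograft tumors, 269, 277 and 192 in metastases, 967, 239 and 123 in primary tumors, and 25.7, 27.9 and 38.0 in proximal tubule cells. No tumor library overlapped the proximal tubule cells, though allograft tumor 1 came close, and the allograft tumors spread widely. Clu rose by 2.21 ± 0.85 in allograft tumors (adjusted p = 0.0373), 2.97 ± 0.85 in metastases (adjusted p = 0.00957) and 3.30 ± 0.85 in primary tumors (adjusted p = 0.00808). The allograft call was lost without allograft tumor 2 (1.38, adjusted p = 0.151) or allograft tumor 3 (2.15, adjusted p = 0.0822), and without any one of the 3 proximal tubule libraries (2.10 to 2.38, adjusted p = 0.0595 to 0.0896).

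**Figure D4:**
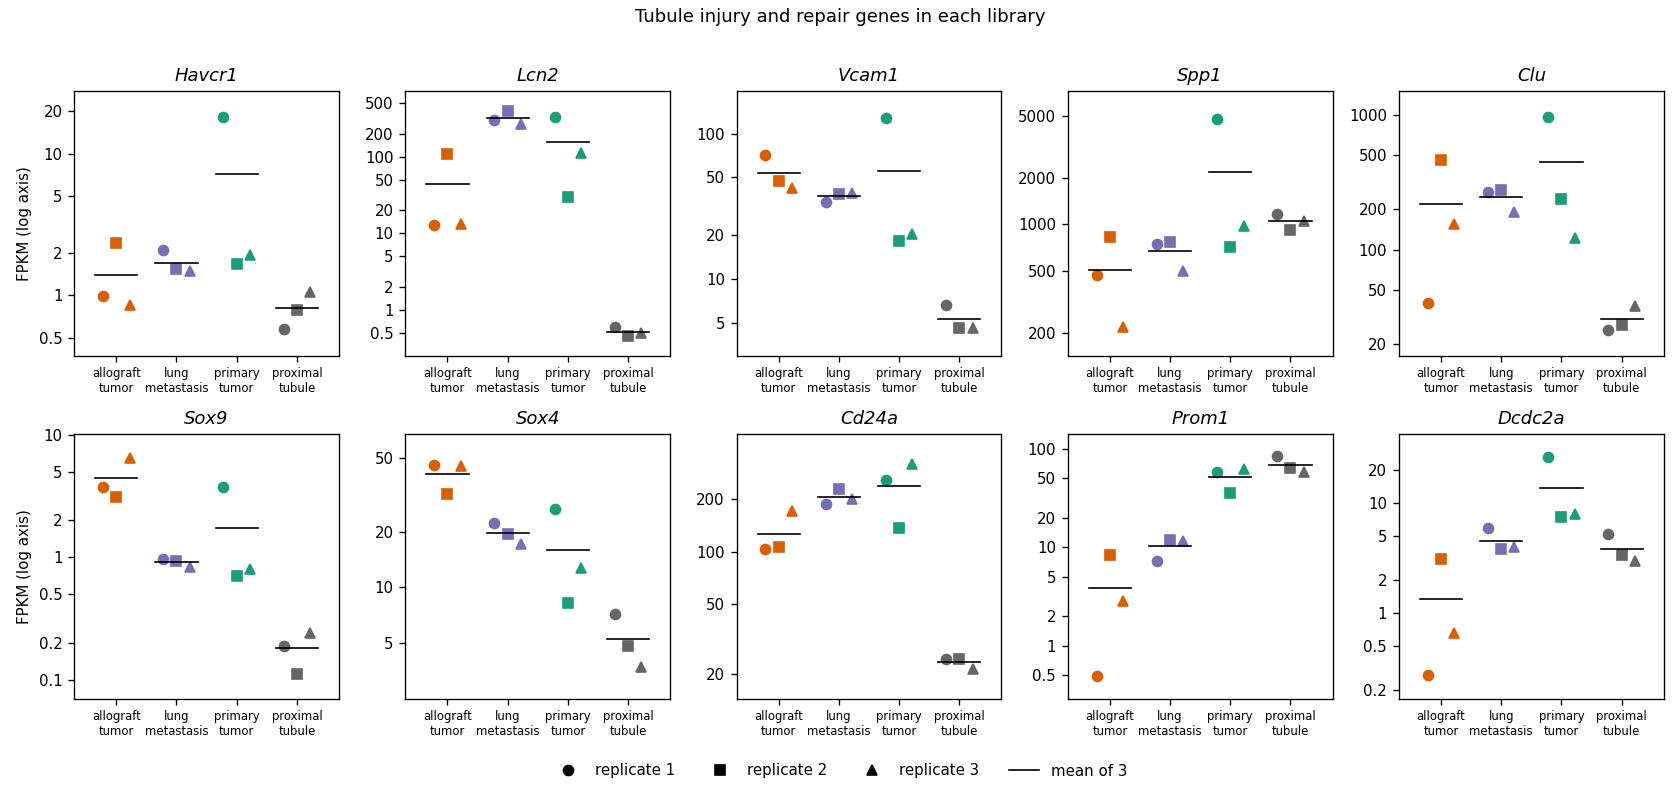
FPKM of each of the 10 genes (log axes) in every library, with allograft tumors, lung metastases, primary tumors and proximal tubule cells from left to right, a symbol for each replicate and a line at the mean of 3. Lcn2 and Cd24a are above the proximal tubule libraries in all 9 tumor libraries, Prom1 is lowest in the allograft tumors (0.489 to 8.35 FPKM), and primary tumor 1 stands above the other primary tumors for 8 of the 10 genes.

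The transcription factor genes were highest in the allograft tumors. Sox9, which acts in nephron development and is switched on again in repairing tubule (chr11:112782224-112787760, plus strand), stood at 3.74, 3.10 and 6.39 FPKM in allograft tumors, 0.968, 0.929 and 0.829 in metastases, 3.71, 0.708 and 0.805 in primary tumors, and 0.191, 0.112 and 0.241 in proximal tubule cells. All tumor libraries were above the proximal tubule cells, where the values rest on about 3.20 to 6.32 fragments, and the allograft tumors were reached by primary tumor 1 alone. Sox9 rose by 2.15 ± 0.35 in allograft tumors (adjusted p = 3.20e-04) and by 1.05 ± 0.35 in primary tumors (adjusted p = 0.0291), and the metastases differed by 0.69 ± 0.35 (adjusted p = 0.104). The call in primary tumors was lost without primary tumor 1 (0.57, adjusted p = 0.0595) and without any one proximal tubule library (1.00 to 1.08, adjusted p = 0.0605 to 0.0772). Without primary tumor 1 the unchanged 0.69 of the metastases was called (adjusted p = 0.0111).

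Sox4, a SoxC factor of progenitor and developing epithelium (chr13:28948919-28953713, minus strand, with the noncoding gene Gm26735, not analysed here, overlapping it), stood at 45.8, 31.8 and 45.3 FPKM in allograft tumors, 22.4, 19.3 and 17.1 in metastases, 26.6, 8.21 and 12.7 in primary tumors, and 7.20, 4.85 and 3.70 in proximal tubule cells. The allograft tumors lay above every other library, and the lowest primary tumor lay just above the highest proximal tubule library. Sox4 rose by 2.77 ± 0.36 in allograft tumors (adjusted p = 6.98e-05), 1.75 ± 0.36 in metastases (adjusted p = 0.00147) and 1.32 ± 0.36 in primary tumors (adjusted p = 0.0111).

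Cd24a encodes a small glycoprotein tethered to the outer membrane (chr10:43578284-43584265, plus strand). Its level was 103, 106 and 172 FPKM in allograft tumors, 187, 231 and 202 in metastases, 258, 137 and 320.0 in primary tumors, and 24.2, 24.2 and 21.4 in proximal tubule cells. Every tumor library was far above the highest proximal tubule library, and the SE of its changes was the smallest of the 10 members. Cd24a rose by 2.36 ± 0.30 in allograft tumors (adjusted p = 5.87e-05), 3.09 ± 0.30 in metastases (adjusted p = 1.40e-05) and 3.22 ± 0.30 in primary tumors (adjusted p = 3.03e-05). B cells, neutrophils and distal tubule cells also express it. Marker sums of B and plasma cells were 10.01 to 59.6 FPKM in allograft tumors and 133 to 240 in metastases. They were 123 to 454 FPKM in primary tumors and 0.346 to 1.03 in proximal tubule cells. In allograft tumors, whose hosts lack mature B cells, 2 to 3 of these 7 markers reached 1 FPKM. Sums of 10 loop, distal tubule and collecting duct markers were 1.79 to 26.0 FPKM in allograft tumors, 7.94 to 11.5 in metastases, 311 to 4556 in primary tumors and 324 to 566 in proximal tubule cells, and neutrophil sums are given with Lcn2. The part of these cells in Cd24a was not tested.

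Prom1 encodes a cholesterol-binding glycoprotein of membrane protrusions such as microvilli and the ciliary base (chr5:43993620-44102032, minus strand). The gene had 0.489, 8.35 and 2.82 FPKM in allograft tumors, 7.21, 11.9 and 11.6 in metastases, 58.6, 35.8 and 62.2 in primary tumors, and 84.4, 64.2 and 58.0 in proximal tubule cells. Primary tumors and proximal tubule cells overlapped, and both lay above all metastases and allograft tumors. Prom1 fell by 4.20 ± 0.54 in allograft tumors (adjusted p = 6.18e-05) and by 2.65 ± 0.54 in metastases (adjusted p = 0.00132), while the change of -0.42 ± 0.54 in primary tumors was not called (adjusted p = 0.528). Sums of proximal tubule markers, given above, were also lower in allograft tumors and metastases than in proximal tubule cells. In primary tumor 1 that sum was 167 FPKM, against 178 to 224 FPKM in the metastases, with Prom1 at 58.6 FPKM. Of these 10 markers, 9 reached 1 FPKM in primary tumor 1 and 3 did in each metastasis. Sums of loop, distal tubule and collecting duct markers were 311 to 4556 FPKM in primary tumors and 324 to 566 in proximal tubule cells. They were 7.94 to 11.5 FPKM in metastases and 1.79 to 26.0 in allograft tumors. The part of residual tubule in the Prom1 values was not tested.

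Dcdc2a encodes a doublecortin-domain protein of microtubules and cilia (chr13:25056004-25210706, plus strand, overlapped by the pseudogene Gm11348, not analysed here). Values were 0.272, 3.09 and 0.650 FPKM in allograft tumors, 5.88, 3.77 and 3.93 in metastases, 25.9, 7.49 and 7.82 in primary tumors, and 5.21, 3.33 and 2.94 in proximal tubule cells. The primary tumors lay above all other libraries, and the metastases overlapped the proximal tubule cells. Dcdc2a rose by 1.42 ± 0.50 in primary tumors (adjusted p = 0.0363). It differed by -1.21 ± 0.50 in allograft tumors (adjusted p = 0.0529) and by 0.20 ± 0.50 in metastases (adjusted p = 0.730). The call in primary tumors was lost without primary tumor 1 (0.87, adjusted p = 0.119) and without proximal tubule library 2 or 3 (1.35 and 1.28, adjusted p = 0.091 and 0.103), and the allograft change was called without allograft tumor 2 (-1.71, adjusted p = 0.00983), primary tumor 1 (adjusted p = 0.0169) or primary tumor 2 (adjusted p = 0.0499).

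Between allograft tumors and primary tumors, 5 of the 10 members were called. Sox4 rose by 1.45 ± 0.36 (adjusted p = 0.00928) and Sox9 by 1.10 ± 0.35 (adjusted p = 0.0294), while Prom1 fell by 3.78 ± 0.54 (adjusted p = 5.84e-04), Dcdc2a by 2.62 ± 0.50 (adjusted p = 0.00261) and Cd24a by 0.86 ± 0.30 (adjusted p = 0.0411). These 2 rises and 3 falls among 10 members stand beside 20.5% of all genes called higher and 21.1% called lower. Without overlap, 1 member (Sox4) was higher and 2 (Prom1 and Dcdc2a) were lower, beside 21.2% and 22.5% of all genes. Spp1 (-1.77, adjusted p = 0.055), Lcn2 (-1.92, adjusted p = 0.103), Havcr1 (-1.19, adjusted p = 0.143), Clu (-1.08, adjusted p = 0.330) and Vcam1 (0.50, adjusted p = 0.522) were not called. The Sox9 call was lost without primary tumor 2 (0.85, adjusted p = 0.1) or 3 (0.89, adjusted p = 0.109) and without allograft tumor 1 (1.17, adjusted p = 0.0554) or 3 (0.85, adjusted p = 0.0942). The Cd24a call was lost without any one of 10 of the 12 libraries (-0.86 to -0.60, adjusted p = 0.0559 to 0.15), all but primary tumor 2 and allograft tumor 3.

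Leaving out single libraries also brought members under the threshold between allograft tumors and primary tumors. Lcn2 was lower without primary tumor 2 (-2.79, adjusted p = 0.023) or allograft tumor 2 (-2.90, adjusted p = 0.0142). Spp1 was lower without primary tumor 2 (-2.30, adjusted p = 0.0254) or allograft tumor 2 (-2.22, adjusted p = 0.0354). Vcam1 was higher without primary tumor 1 (1.39, adjusted p = 8.33e-04) and lower when tumor 1 stood alone for its group (-1.28, adjusted p = 0.0196). Against tumor 1 alone, Sox4 (0.59, adjusted p = 0.244) and Sox9 (0.15, adjusted p = 0.758) were no longer called.

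Between metastases and primary tumors, Prom1 was the single member called. It fell by 2.23 ± 0.54 (adjusted p = 0.017), with 7.21 to 11.9 FPKM in metastases and 35.8 to 62.2 FPKM in primary tumors. This count of 0 rises and 1 fall stands beside 11.3% of all genes called higher and 9.59% called lower, and without overlap 0 members were higher and 2 lower, beside 21.9% and 20.1%. The second of these was Dcdc2a (-1.21 ± 0.50, adjusted p = 0.111). The largest difference in the other direction was that of Lcn2, at 1.62 ± 0.88 (adjusted p = 0.210). The Prom1 call was lost without primary tumor 3 (-2.09, adjusted p = 0.0658) or metastasis 1 (-2.02, adjusted p = 0.0635). Without primary tumor 1, Lcn2 (2.44, adjusted p = 0.039), Vcam1 (0.91, adjusted p = 0.0117) and Sox4 (0.87, adjusted p = 0.0313) were called higher in metastases.

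Between allograft tumors and metastases, Sox9 rose by 1.46 ± 0.35 (adjusted p = 0.0138) and Lcn2 fell by 3.53 ± 0.88 (adjusted p = 0.0153). These calls, 1 in each direction, stand beside 10.4% of all genes called higher and 13.3% called lower. Without overlap, 3 members were higher and 3 lower, beside 24.8% and 23.6% of all genes. Sox4 (1.02 ± 0.36, adjusted p = 0.0662) and Vcam1 (0.48 ± 0.59, adjusted p = 0.609) were higher without overlap but not called, and Dcdc2a (-1.41 ± 0.50, adjusted p = 0.0681) and Cd24a (-0.73 ± 0.30, adjusted p = 0.106) were lower without overlap but not called. Prom1 differed by -1.55 ± 0.54 with overlapping groups (adjusted p = 0.0602). The Lcn2 call was lost without metastasis 2 (-3.37, adjusted p = 0.056), allograft tumor 1 (-3.03, adjusted p = 0.0635) or allograft tumor 3 (-3.06, adjusted p = 0.0507), and the Sox9 call without metastasis 3 (1.43, adjusted p = 0.05). Neutrophil marker sums also differed between these groups, at 25.5 to 41.1 FPKM in allograft tumors and 222 to 442 FPKM in metastases. So did lung epithelial marker sums, at 33.1 to 41.2 and 12681 to 20063 FPKM. The part of these cells in the differences was not tested.

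A few further calls between allograft tumors and metastases appeared when 1 library was left out. Without allograft tumor 2, Prom1 (-2.21, adjusted p = 0.00484) and Dcdc2a (-1.91, adjusted p = 0.0175) were called lower. Cd24a was called lower without allograft tumor 3 (-0.97, adjusted p = 0.0472) or primary tumor 2 (-0.73, adjusted p = 0.0265). Sox4 was called higher without primary tumor 1 (adjusted p = 0.0123) or 2 (adjusted p = 0.0291), at an unchanged 1.02, and Dcdc2a lower without primary tumor 1 (adjusted p = 0.0207). Calls moved by libraries outside the comparison reflect the shared estimate of spread.

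**Figure D5:**
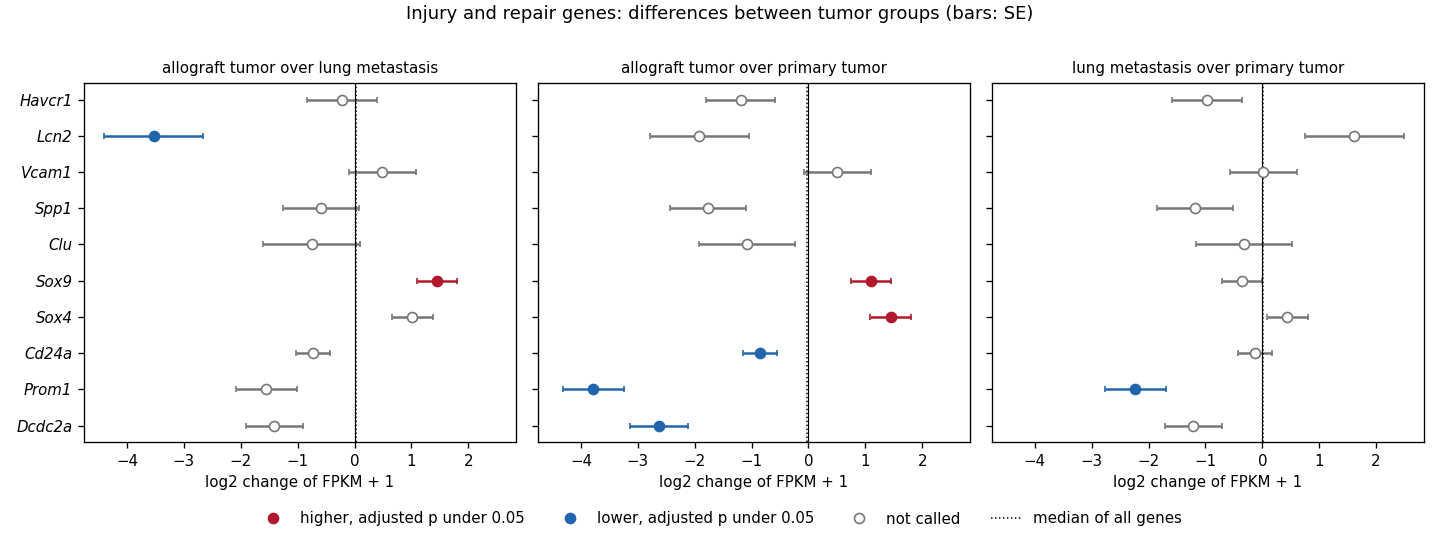
Log2 change of each gene (points, with SE bars) for allograft tumors over lung metastases, allograft tumors over primary tumors and lung metastases over primary tumors, with filled symbols for an adjusted p under 0.05. Filled symbols are few: Sox9 and Lcn2 in the first panel, Sox9, Sox4, Cd24a, Prom1 and Dcdc2a in the second, and Prom1 in the third.

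Primary tumor 1 was the highest of the 3 for 8 of 10 members, all but Cd24a and Prom1, beside 37.1% of all genes, and the highest of all 12 libraries for 5 members (Havcr1, Vcam1, Spp1, Clu and Dcdc2a). Its level over the mean of primary tumors 2 and 3 was 10.04 for Havcr1, 6.65 for Vcam1, 5.66 for Spp1, 5.35 for Clu, 4.90 for Sox9, 4.62 for Lcn2, 3.39 for Dcdc2a and 2.54 for Sox4, against 1.20 for Prom1 and 1.13 for Cd24a. Among other injury and repair genes it was the highest primary tumor for 29 of 38. The same library had the lowest sum of proximal tubule markers (167 FPKM, against 4254 and 1084 in primary tumors 2 and 3), the lowest sum of loop, distal and collecting duct markers (311, against 2196 and 4556), and the highest sums of macrophage (2810, against 411 and 572) and fibroblast markers (945, against 165 and 318). Their part in the values of primary tumor 1 was not tested.

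The allograft tumors varied in another way. Allograft tumor 2 was the highest of its group for 6 of 10 members (Havcr1, Lcn2, Spp1, Clu, Prom1 and Dcdc2a), beside 26.3% of all genes, with Lcn2 at 108 FPKM against 12.7 and 13.4 and Prom1 at 8.35 against 0.489 and 2.82. It also had the highest sums in its group of proximal tubule (109, against 52.1 and 38.3 FPKM), fibroblast (2425, against 1298 and 963), neutrophil (41.1, against 28.3 and 25.5) and endothelial markers (144, against 76.1 and 83.0). It was the lowest of its group for Sox9 and Sox4. The highest macrophage sum of the group was that of allograft tumor 1 (6553, against 3652 and 1712 FPKM). That library was also highest for loop and distal, podocyte, B and plasma cell, and lung epithelial markers. Allograft tumor 3 had the highest T cell sum. Whether cell mixture sets the differences between these libraries was not tested.

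Other injury and repair genes came from a list of 40, of which 38 passed the filter. In allograft tumors over proximal tubule cells 25 rose and 5 fell (median 1.81), among them Timp1, a protease inhibitor (6.99, adjusted p = 7.34e-05), and Anxa1, an annexin (6.47, adjusted p = 4.53e-06). The largest falls there were those of Itgb6, an epithelial integrin (-4.60, adjusted p = 1.47e-06), and Pax2, a nephron lineage factor (-2.33, adjusted p = 0.0025). In metastases 25 rose and 5 fell (median 2.33), led by Krt19, a simple-epithelial keratin (6.71, adjusted p = 1.11e-06). In primary tumors 20 rose and 2 fell (median 1.56), led by Krt19 (4.70, adjusted p = 2.15e-05), and the falls were of Atf3, a stress-response factor (-2.22, adjusted p = 0.00121), and Fgg, a fibrinogen chain (-1.12, adjusted p = 0.0457). The shares that rose were 65.8, 65.8 and 52.6%, set against the 52.2, 54.0 and 48.2% of all genes given above. The shares that fell were 13.2, 13.2 and 5.26%, set against 16.9, 14.4 and 4.9% of all genes.

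The same list was compared between tumor groups. In allograft tumors over primary tumors 14 of 38 rose and 6 fell, beside 20.5% and 21.1% of all genes, with Timp1 (3.60, adjusted p = 0.0105) among the rises and Itgb6 (-3.99, adjusted p = 2.42e-05) among the falls. In metastases over primary tumors 13 rose and 3 fell, beside 11.3% and 9.59% of all genes, with Vim, the mesenchymal intermediate filament (2.88, adjusted p = 0.00726), among the rises and Fga, a fibrinogen chain (-1.62, adjusted p = 0.0154), among the falls. In allograft tumors over metastases 2 rose, Krt18 (1.27, adjusted p = 0.00991) and Krt8 (1.20, adjusted p = 0.00454), which pair in simple epithelium. Among the 3 that fell, beside 10.4% of all genes called higher and 13.3% lower in this comparison, were Itgb6 (-3.35, adjusted p = 1.98e-05) and Cdh6, a nephron cadherin (-2.33, adjusted p = 0.0197).

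Among the members, profiles over the 12 libraries were closest for Sox4 and Sox9, with a root mean square difference of 0.469 on the centred log2 scale. Dcdc2a and Spp1 followed at 0.600, Vcam1 and Sox4 at 0.633, and Havcr1 and Spp1 at 0.675, while Lcn2 stood farthest from the rest, with Clu nearest at 1.85. Of all genes with a highest library of at least 10 FPKM, the profile most like that of Sox4 was Pafah1b3 (0.178), then Cchcr1 (0.186). Brca2 (0.245) came nearest to Sox9, Phxr4 (0.257) to Cd24a, Slfn8 (0.340) to Vcam1, Misp (0.448) to Dcdc2a, Adgrg1 (0.452) to Prom1, Clca3a2 (0.458) to Havcr1, Prr15 (0.594) to Spp1, Dkk3 (0.644) to Lcn2 and Fxyd3 (0.662) to Clu. Dkk3 followed Lcn2 across groups, at 26.2, 108 and 62.7 FPKM in allograft tumors, 518, 519 and 498 in metastases, 569, 113 and 160.4 in primary tumors and 0.479, 1.25 and 0.882 in proximal tubule cells. The points share libraries, groups and scaling, and likeness of this kind is a description.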

How the data were processed

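RNA from 3 allograft tumors, 3 lung metastases, 3 primary kidney tumors and 3 samples of sorted proximal tubule cells was extracted with RNeasy Micro kits and sequenced. The deposited values are FPKM per gene, as computed by the authors. The submitters' processing notes name Salmon, bcl2fastq 2.17.1.14 and the builds mm10 and GRCm38. Gene lengths, the version of Salmon, the kind of library and its strandedness were not stated, so reads of overlapping and antisense genes cannot be told apart. The table held no counts. Depth was estimated from the low end of FPKM times length over 5927 genes with 1 annotated transcript, and the column sums (7.06e+05 to 2.53e+06 FPKM) showed that the values were not TPM.

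Of 24432 gene identifiers, 24189 matched GENCODE M21 and had a symbol, the 10 members included. Values were used as log2(FPKM + 1), and a gene had to reach 1 FPKM in 3 libraries to be kept. All 4 groups entered 1 limma fit (version 3.58.1, R 4.3.3) with a trended variance and no covariates. Each of 6 comparisons was adjusted by the Benjamini-Hochberg method across its 16313 genes. The fit was tested on simulated data.

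All 10 members are named. From each other list the text names, per comparison, at most the 3 called genes with the largest change in each direction and the most abundant gene, and some of these are not reported here. The genes with the most similar profile are those with the smallest root mean square difference over the 12 libraries, without predicted genes. The members and lists were chosen with earlier results of these data known. The alternatives changed the pseudocount (0.1 or 5), the filter (none or 5 FPKM) and the scaling (5 others), and included fits of only the 2 groups compared, a replicate block, and leaving out each library or primary tumors 2 and 3 together. Promoter windows came from RefSeq (GRCm38.p6), and a window was found for 6 members.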

Additional observations from a re-analysis of the deposited data

How the results depend on the processing

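Across 1428 alternatives of the members' changes, 1259 kept direction and side of the threshold, 75 lost a call, 63 gained one and 31 turned direction. In primary tumors over proximal tubule cells 4 members were called, in place of 7, after rescaling to TPM (3 higher and 1 lower), median-of-ratios scaling with all or only protein-coding genes, quantile normalization, rescaling without the 50 most abundant genes, and fitting only the 2 groups. In metastases over primary tumors 0 members were called with a pseudocount of 0.1 and 5 without primary tumors 2 and 3, in place of 1. In allograft tumors over primary tumors 2 were called with only the 2 groups fitted, in place of 5. In allograft tumors over metastases 1 was called with a filter at 5 FPKM, which leaves no value for Havcr1 and Sox9, and 5 without primary tumors 2 and 3, in place of 2. Leaving out 1 library at a time, counts of called members ran from 6 to 9 (allograft tumors), 6 to 8 (metastases) and 5 to 8 (primary tumors) over proximal tubule cells, 3 to 6 for allograft over primary tumors, 0 to 4 for metastases over primary tumors and 1 to 4 for allograft tumors over metastases. The share of all genes called moved as well. In metastases over primary tumors it was 20.9% as fitted, 9.53% without metastasis 2 and 38.4% without primary tumor 1. A group left with 1 library is assumed to vary like the others. The cause of these changes was not tested.

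Directions over proximal tubule cells turned as follows. In allograft tumors Havcr1 was -0.27 as TPM and -0.58 with quantiles. In metastases quantiles gave Havcr1 -0.74, Sox9 -0.53 and Dcdc2a -0.81, and Dcdc2a was -0.64 as TPM, -0.29 and -0.27 with the median-of-ratios scalings and -0.16 without the 50 most abundant genes. In primary tumors Sox9 was -0.14 with quantiles, and Spp1 was -0.59 as TPM, -0.13 and -0.10 with the median-of-ratios scalings and -0.18 with quantiles. Leaving out 1 library moved Spp1 there between -0.32 and 1.05.

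For metastases over primary tumors, Vcam1 was -0.024 with a pseudocount of 5, -0.0041 with quantiles and -0.045 without the 50 most abundant genes. Without primary tumors 2 and 3 it was -1.76, Lcn2 -0.031 and Sox4 -0.43. Leaving out 1 library moved Vcam1 between -0.46 and 0.91, Sox9 between -0.61 and 0.12, Clu between -0.98 and 0.50 and Cd24a between -0.48 and 0.13. For allograft over primary tumors, Vcam1 was -1.28 without primary tumors 2 and 3. For allograft tumors over metastases, Havcr1 was 0.16 with quantiles, and leaving out 1 library moved Clu between -1.59 and 0.14. Over all genes, calls in metastases over primary tumors were 3414 as fitted, 6268 without primary tumor 1, 1175 with only the 2 groups and 1155 without primary tumors 2 and 3. In allograft over primary tumors they were 6784 as fitted and 2893 with only the 2 groups, and in primary tumors over proximal tubule cells 8661 as fitted and 5738 with quantiles. The share of calls that were higher moved from 49.3% to 31.9% as TPM and 29.4% without the 50 most abundant genes in allograft over primary tumors, from 44.0% to 17.5, 54.8 (quantiles) and 23.8% in allograft tumors over metastases, and from 54.2% to 43.2% without those 50 genes in metastases over primary tumors.

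Deviations from the group means were correlated over 18 pairs of libraries with the same replicate number. The correlations ran from -0.0433 to 0.0977, and the same number was the best match in 8 of these pairs. In bulk libraries that differ in cell mixture, low correlations cannot show whether a metastasis and a primary tumor came from the same mouse. Pairing by animal was therefore not tested. With replicate numbers as a block, 6 members were called in allograft tumors, 6 in metastases and 7 in primary tumors over proximal tubule cells. The counts were 6 in allograft over primary tumors, 1 in metastases over primary tumors and 3 in allograft tumors over metastases. In the same order, 68.2, 67.7, 52.3, 40.1, 20.4 and 22.3% of all genes were called with the block. The block ended the call of Clu in allograft tumors over proximal tubule cells (adjusted p = 0.0554) and added Spp1 in allograft over primary tumors (adjusted p = 0.0492) and Sox4 in allograft tumors over metastases (adjusted p = 0.0308). Values under 1 FPKM in proximal tubule cells rest on few fragments, and 3 libraries a group limit every test.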

Other observations

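Receptors, ligands and sheddases of the 10 proteins made a list of 17 genes, all past the filter. Over proximal tubule cells 12 rose and 2 fell in allograft tumors, and 13 rose and 3 fell in metastases. In primary tumors 12 rose and 2 fell. Of all genes, 52.2, 54.0 and 48.2% were called higher and 16.9, 14.4 and 4.9% lower in the same 3 comparisons. Both receptors of LCN2 fell in each. Lrp2, the endocytic receptor megalin, stood at 17.7, 25.4 and 8.94 FPKM in allograft tumors, 39.9, 33.1 and 30.4 in metastases, 35.9, 472 and 108 in primary tumors, and 800.2, 839 and 917 in proximal tubule cells. It fell by 5.65 ± 0.72 (SE, adjusted p = 6.26e-05), 4.60 ± 0.72 (adjusted p = 2.69e-04) and 2.78 ± 0.72 (adjusted p = 0.00859) in the 3 kinds of tumor. Slc22a17, the other LCN2 receptor, averaged 3.57 ± 1.47 FPKM in allograft tumors, 5.77 ± 1.72 in metastases, 9.15 ± 2.97 in primary tumors and 25.5 ± 4.34 in proximal tubule cells (SD, n = 3 each), and fell by 2.57, 1.98 and 1.41 (SE 0.30, adjusted p = 3.60e-05, 2.14e-04 and 0.003). Lrp2 is also on the list of proximal tubule markers.

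Some of these are integrin genes whose products can bind VCAM1 or osteopontin. Itgb7 rose by 1.88 (adjusted p = 1.18e-04), 2.87 (adjusted p = 1.10e-05) and 2.63 (adjusted p = 4.63e-05) in allograft tumors, metastases and primary tumors, and Itga9 by 2.81, 3.16 and 2.29 (adjusted p = 3.91e-05, 2.31e-05 and 3.45e-04). Itgav, a subunit of osteopontin receptors, was at 42.9 to 50.4 FPKM in allograft tumors, 37.9 to 48.7 in metastases, 55.4 to 101 in primary tumors and 56.6 to 62.6 in proximal tubule cells, and was not called in any of the 3. Several of these genes are expressed by leukocytes, whose marker sums were also higher in tumors, and their part was not tested.

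Other SoxC and SoxE genes also differed between groups, and 3 of 4 passed the filter. Sox11, a SoxC relative of Sox4, stood at 13.5, 18.7 and 15.2 FPKM in allograft tumors, 9.42, 6.66 and 6.86 in metastases, 4.54, 0.242 and 0.334 in primary tumors, and 0.156, 0.0524 and 0.132 in proximal tubule cells. It rose by 3.90 ± 0.47 in allograft tumors (adjusted p = 4.15e-05) and 2.94 ± 0.47 in metastases (adjusted p = 2.85e-04), and by 2.99 ± 0.47 in allograft over primary tumors (adjusted p = 9.15e-04). The third SoxC gene, Sox12, fell by 0.98 ± 0.25 in allograft tumors over proximal tubule cells (adjusted p = 0.00563). Sox8, a SoxE relative of Sox9, rose by 1.29, 1.38 and 0.96 in the 3 kinds of tumor (SE 0.32, adjusted p = 0.00429, 0.00309 and 0.0272). Sox10 did not pass the filter.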
